A study of Schizosaccharomyces pombe with 6 samples.

Results

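Long non-coding RNAs (ncRNAs) of fission yeast are described here at the level of gene models, together with the protein-coding genes that they overlap or adjoin. The models were chosen by a rule on their level: biotype ncRNA and a mean of at least 1 FPKM (fragments per kilobase of gene model scaled to library size) over the 6 libraries. The rule was met by 474 of 1534 ncRNA models (30.9%), out of 7268 gene models of all kinds. Among the others, 509 were listed at 0 in every library and 551 lay above 0 but below the minimum. The nearest models on either side of the minimum had means of 1.021 FPKM (inside) and 0.9946 FPKM (outside).

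The cells were wild type Schizosaccharomyces pombe (strain 972-), a unicellular haploid yeast, grown in rich YES medium with 3% glucose at 32°C. They received 100 nM rapalink-1 or 100 nM rapamycin, or were left untreated, and were harvested after 5 h, with 2 libraries per condition. Rapamycin binds FKBP12 and inhibits the TORC1 kinase complex, and rapalink-1 joins rapamycin to the kinase inhibitor sapanisertib. The labels describe a pair of mother cultures that were each divided into flasks, and do not tie a replicate number to a mother culture, so the p-values measure the spread between these flasks.

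Most ncRNAs of fission yeast are made by RNA polymerase II, capped and polyadenylated, and many are kept low by nuclear RNA surveillance, in which the exosome, its TRAMP and MTREC partners and the RNA-binding protein Mmi1 take part. Mmi1 binds clusters of the hexamer UNAAAC in meiotic transcripts and targets them for decay during vegetative growth. Antisense and divergent ncRNAs arise beside many genes in this compact genome, and some regulate the neighbouring gene, while for most no role is known. TORC1 inhibition or nitrogen starvation is a trigger for the mating and meiosis programme, whose transcription factor Ste11 recognises the TR box, and the GATA factor Gaf1 acts downstream of TORC1.

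By position, 196 of the 474 ncRNAs overlapped a protein-coding model on the opposite strand only, 53 on the same strand only and 37 on both strands, and 188 overlapped none. If an overlap had to cover at least 50% of the ncRNA model, the numbers were 99, 2, 0 and 373. The ncRNAs were low: their median mean level was 3.75 FPKM and the highest was 163 FPKM (SPNCRNA.120), against a median of 45.7 FPKM for protein-coding genes above the same minimum. Their median length was 941 bases, with a range of 75 to 5317 bases. Over the 6 libraries a median of 401 reads fell on an ncRNA, and the fewest were 16 reads, out of 16527483 to 26321118 reads per library. The submitters' annotation described 135 of them as antisense RNA and 229 as intergenic RNA, and named 81 as a possible alternative end of a coding transcript.

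The way reads were counted bears on every overlapping ncRNA. Of the ncRNA models that lie wholly under other models, 409 of 471 (86.8%) had no read in any library, against 19 of 243 (7.82%) of the ncRNA models with no overlap. The same held for protein-coding models that lie wholly under models of the opposite strand, of which 362 of 392 (92.3%) had no read, against 18 of 2169 (0.83%) of those with no opposite-strand overlap. Stretches shared by models of either strand thus gave almost no reads to either model. The value of a partly overlapping ncRNA therefore rests mainly on its free bases (a median of 558 bases over the 474), and 7 ncRNAs with none still had reads. FPKM divides by the whole model, however, and the strand of a read could not be used. Only 153 of the 474 ncRNAs had no overlap with any model.

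**Figure D1:**
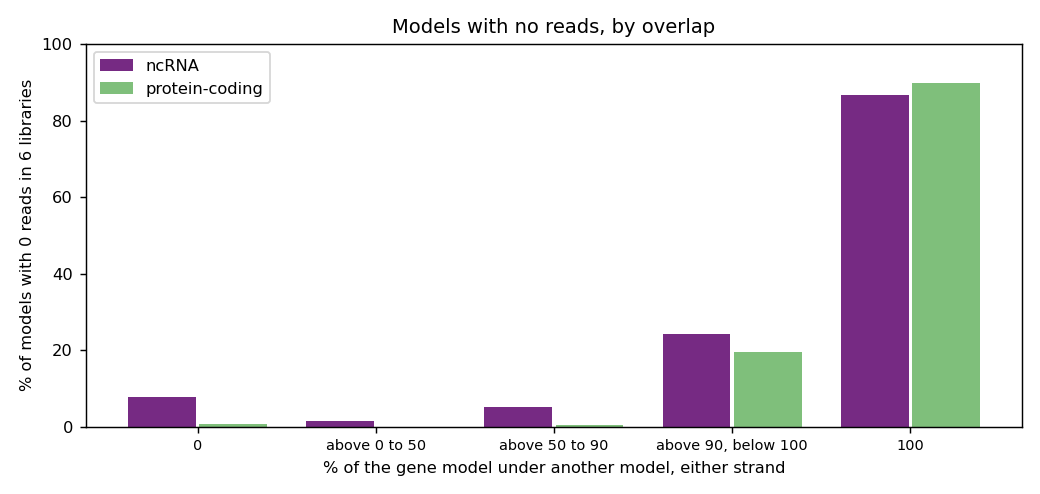
Share of gene models with 0 reads in all 6 libraries (vertical axis, %) against the percentage of the model that lies under another model of either strand (horizontal axis), for ncRNA (purple) and protein-coding (green) models. The share without reads is 7.82% for ncRNA models with no overlap and 86.8% for those fully overlapped.

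Sequences were read from the RefSeq genome ASM294v3. It holds 467 of the 474 ncRNAs by identifier or synonym, 459 of them with the same start and end as in the files, and its chromosomes I and III end at the last position of the submitters' models. The last 120 bases of the sme2 model are shown because this RNA, meiRNA, is the known platform that holds Mmi1 during meiosis. Capitals mark TNAAAC, searched on the strand of the RNA (chrII:339346-339465, minus strand, ASM294v3).
sme2: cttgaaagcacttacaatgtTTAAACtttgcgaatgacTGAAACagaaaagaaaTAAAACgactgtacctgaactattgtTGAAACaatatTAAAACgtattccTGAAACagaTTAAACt
The window holds 7 copies of the motif, and the whole model of 667 bases holds 8. Among the 474 ncRNAs, 1 had 7 or more copies within 100 bases, which was sme2, and among all 7208 models of the 3 chromosomes it was also the only 1. The median density was 1.98 copies per kb over the 474 ncRNAs and 1.63 per kb over all models. At least 4 copies within 100 bases were present in 5 of the 474 ncRNAs, namely sme2, SPNCRNA.1459, SPNCRNA.1366, SPNCRNA.1110 and trs3-antisense-1.

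The next sequences are the gaps between 4 ncRNAs and the coding gene that is transcribed away from each of them, because these divergent pairs are described below. They are written along the strand of the ncRNA (plus strand in each case, ASM294v3), from the first base after the coding model to the last base before the ncRNA. Capitals mark TTCTTTGTT, the TR box of Ste11, or GATAA, the GATA core, on either strand.
mei2 to SPNCRNA.993 (chrI:4515016-4515181): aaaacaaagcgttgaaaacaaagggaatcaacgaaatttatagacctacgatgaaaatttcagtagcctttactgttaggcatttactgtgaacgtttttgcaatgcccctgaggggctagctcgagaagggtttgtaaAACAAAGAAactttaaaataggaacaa
fur4 to SPNCRNA.178 (chrI:1843996-1844129): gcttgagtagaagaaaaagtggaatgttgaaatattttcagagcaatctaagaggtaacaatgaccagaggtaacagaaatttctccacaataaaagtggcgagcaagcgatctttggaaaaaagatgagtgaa
byr3 to SPNCRNA.189 (chrI:2248536-2248602): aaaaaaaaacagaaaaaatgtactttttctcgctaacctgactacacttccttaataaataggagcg
isp4 to SPNCRNA.1442 (chrII:1553468-1553508): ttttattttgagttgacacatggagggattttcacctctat
The gap beside mei2 holds 1 TR box, and neither motif occurs in the letters of the other gaps. In windows from 250 bases before to 50 bases after the start, TTCTTTGTT was present at 3.38% of the 474 ncRNAs and 1.98% of all models, and SPNCRNA.993 had 4 copies. GATAA was present at 57.4% of the ncRNAs and 60.0% of all models. It was present at 60.0% of the ncRNAs that rose with rapalink-1 and 43.8% of those that fell. These matches describe the letters only.

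The first comparison asked how ncRNA levels in rapalink-1-treated cells differed from those in untreated cells. With rapalink-1, 115 of the 474 ncRNAs rose and 32 fell (limma on log2(FPKM + 1), adjusted p at most 0.05 over 4847 tested genes). Among all tested genes 24.8% rose and 22.5% fell, so the share of ncRNAs that rose (24.3%) was near the background, while the share that fell (6.75%) was below it. Among protein-coding genes of similar level (1 to below 10 FPKM), 20.5% rose and 8.55% fell. The median log2 fold change was 0.102 over the ncRNAs and -0.007 over all tested genes. DESeq2 on the recovered reads called 69 ncRNAs higher (14.6%) and 13 lower (2.74%). Among all tested genes it called 20.9% higher and 18.8% lower, so both ncRNA shares were then below the background. A called increase of at least 2-fold on the log2(FPKM + 1) scale was seen for 20 of the 474 ncRNAs and a decrease of that size for 1. Among the 4847 tested genes 154 rose and 4 fell by that much.

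Of the 474 ncRNAs, 19 reached the minimum through a single condition only, 14 of them through rapalink-1, 4 through rapamycin and 1 through the untreated cells. Without these 19 ncRNAs (a choice made after seeing the data), 107 rose and 32 fell of 455, of which 18 rose and 1 fell by at least 2-fold. When all genes with reads were tested without a minimum, 108 of the 474 ncRNAs rose and 28 fell, against 20.2% and 16.8% of all genes in that test. The balance of rises and falls depended on the scaling. In the fit used here 78.2% of the called ncRNAs rose, against 49.4% (78 higher, 80 lower) after quantile normalization. Among all called genes 52.4% and 38.8% rose. Quantile normalization moved the median of the ncRNAs to -0.052 and that of all tested genes to -0.066. The number that fell was 18 without untreated replicate 1 and 19 without rapalink-1 replicate 1.

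By position, 47 of the 196 ncRNAs with an opposite-strand overlap rose with rapalink-1 and 9 fell. Of the 53 with a same-strand overlap 11 rose and 9 fell, and of the 37 with overlaps on both strands 11 rose and 1 fell. Of the 188 that overlap no coding gene 46 rose and 13 fell. The classes thus held similar shares of rising ncRNAs, from 20.8% to 29.7%, and differences between classes were not tested. Of the 20 ncRNAs that rose at least 2-fold, 11 were among those without a coding overlap, which are 188 of the 474.

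**Figure D2:**
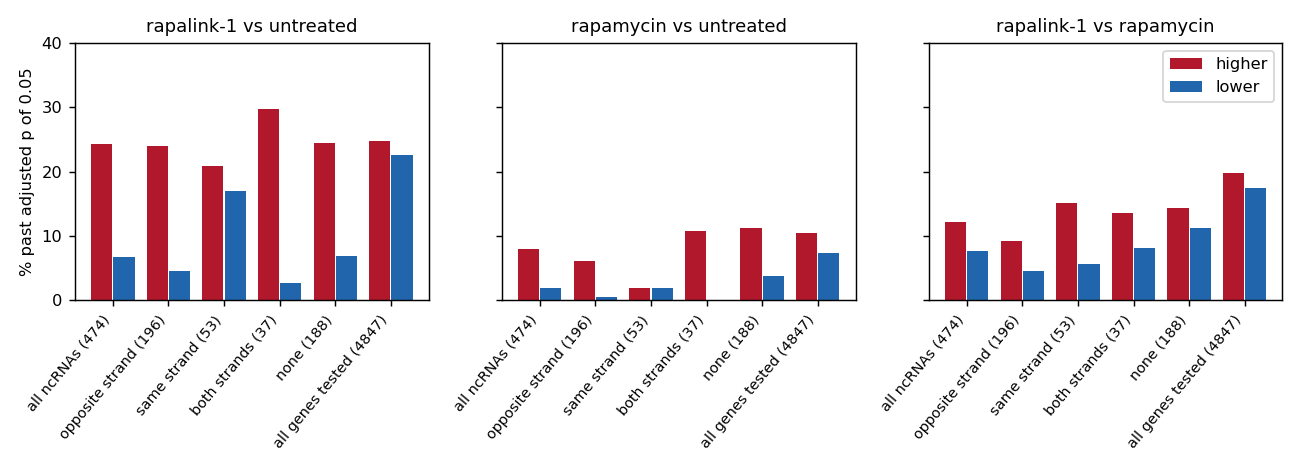
Percentage of ncRNAs that were higher (red) or lower (blue) at an adjusted p of at most 0.05, by their overlap with protein-coding models (number of ncRNAs in brackets), beside all 4847 tested genes, in the 3 comparisons. With rapalink-1 against untreated cells 24.3% of the ncRNAs were higher and 6.75% lower, against 24.8% and 22.5% of all tested genes.

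Among the listed ncRNAs with a known role or name, sme2 and omt3 rose with both drugs. The meiRNA sme2 (chromosome II, 339346 to 340012, minus strand, no overlap with other models of the files) had 30.5 and 24.5 FPKM in rapalink-1-treated cells and 6.92 and 9.36 FPKM in rapamycin-treated cells, against 2.63 and 4.19 FPKM in untreated cells. The conditions did not overlap, with rapamycin between the others. The log2 fold change was 2.71 ± 0.19 with rapalink-1 (SE, limma adjusted p = 1.03e-05) and 1.07 ± 0.19 with rapamycin (limma adjusted p = 0.0082), and without rapamycin replicate 2 the rapamycin change had an adjusted p of 0.0591. A rise in every cell and a rise in a fraction of the cells cannot be told apart in RNA from whole cultures.

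SPNCRNA.1342 lies on the opposite strand beyond that sme2 model, within the longer sme2 model of RefSeq (339346 to 340907). It had 2.21 and 2.47 FPKM with rapalink-1 and 5.83 and 4.40 FPKM with rapamycin, against 5.80 and 4.94 FPKM in untreated cells. It fell by 0.92 on the log2 scale with rapalink-1 (SE 0.15, limma adjusted p = 0.0011), while sme2 rose. Its 55-base overlap with mrpl8, a mitochondrial ribosomal protein gene, was with a gene whose log2 fold change was 0.03 (limma adjusted p = 0.629).

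The intergenic RNA omt3 (chromosome I, 4516070 to 4517070, plus strand, no overlap) had the largest log2(FPKM + 1) change of the 474 ncRNAs with either drug, while by the ratio of means SPNCRNA.935, described below, was higher with rapalink-1. Its level was 71.8 and 58.4 FPKM with rapalink-1 and 9.37 and 9.83 FPKM with rapamycin, against 1.39 and 1.94 FPKM in untreated cells. The mean was thus 39.1-fold that of untreated cells with rapalink-1 and 5.77-fold with rapamycin. The log2 fold changes were 4.64 ± 0.12 (limma adjusted p = 7.97e-08) and 2.00 ± 0.12 (limma adjusted p = 0.00011).

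SPNCRNA.993 lies just before omt3 on the same strand (4515182 to 4515993). It had 5.83 and 4.35 FPKM with rapalink-1 and 1.67 and 1.58 FPKM with rapamycin, against 1.21 and 0.632 FPKM in untreated cells. It rose with rapalink-1 (log2 fold change 1.68 ± 0.19, limma adjusted p = 0.0002), and its change with rapamycin was 0.47 ± 0.19 (limma adjusted p = 0.12). On the other side of the 166-base gap shown above, mei2, which encodes the RNA-binding protein that switches cells to meiosis and that meiRNA binds, had 23.1 and 21.0 FPKM with rapalink-1, 3.46 and 3.16 FPKM with rapamycin, and 1.71 and 2.01 FPKM in untreated cells. mei2 rose with rapalink-1 (log2 fold change 3.02, limma adjusted p = 2.98e-07) and with rapamycin (0.60, limma adjusted p = 0.0092). The next coding gene in the direction of omt3, omt2, which starts 341 bases beyond it, had a log2 fold change of -0.00 with rapalink-1 (limma adjusted p = 0.981).

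The housekeeping ncRNAs did not pass the test. The libraries were made by poly(A) capture, so the values describe captured RNA, and forms without a poly(A) tail would be largely missed. The telomerase RNA ter1, which templates telomere repeats, had 17.7 and 16.1 FPKM with rapalink-1 and 18.1 and 19.3 FPKM with rapamycin, against 17.9 and 16.7 FPKM in untreated cells. The RNA of RNase P, rrk1, which processes tRNA precursors, had 3.89 and 5.53 FPKM with rapalink-1 and 5.84 and 6.83 FPKM with rapamycin, against 4.21 and 6.57 FPKM in untreated cells. The conditions overlapped for both RNAs with rapalink-1, and neither passed the test with either drug (limma adjusted p from 0.35 to 0.75). Of the names on the list of ncRNAs with a known role, 4 were above the minimum (sme2, omt3, ter1 and rrk1).

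**Figure D3:**
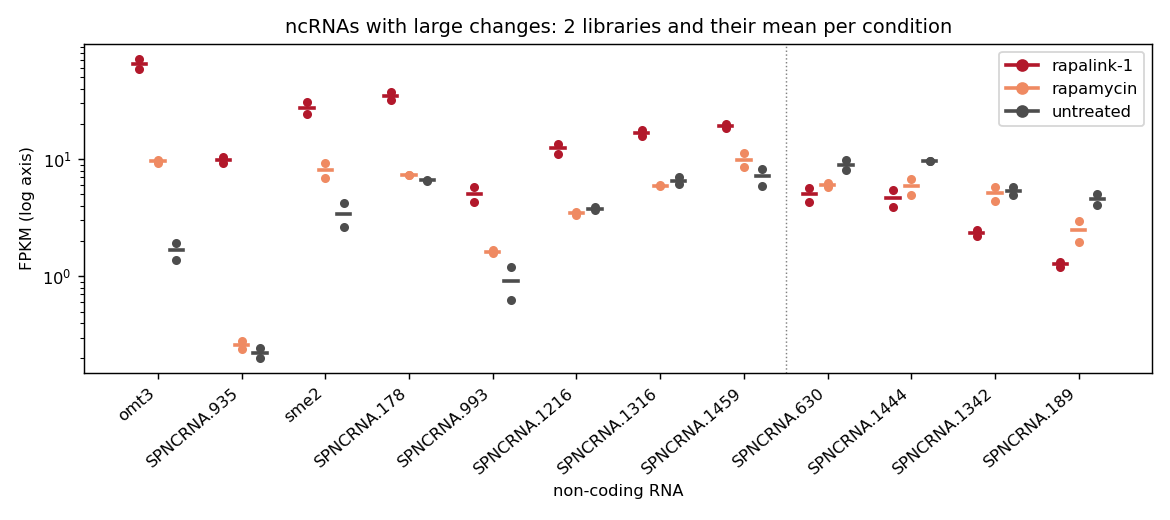
FPKM (log axis) of 12 ncRNAs in rapalink-1-treated (red), rapamycin-treated (orange) and untreated (grey) cells; points are the 2 libraries per condition and bars their mean. The ncRNAs left of the dotted line rose with rapalink-1, up to 71.8 FPKM for omt3 against at most 1.94 FPKM in untreated cells, and those to the right fell.

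Other ncRNAs without a coding overlap changed beside nutrient transporter genes. SPNCRNA.178 (chromosome I, 1844130 to 1845339, plus strand) had 37.5 and 31.7 FPKM with rapalink-1 and 7.34 and 7.38 FPKM with rapamycin, against 6.69 and 6.55 FPKM in untreated cells. It rose 5.23-fold in the mean with rapalink-1 (log2 fold change 2.23 ± 0.09, limma adjusted p = 4.44e-07). Its divergent neighbour fur4, a uracil permease gene 134 bases away, rose as well, with 280 and 218 FPKM with rapalink-1 against 75.5 and 76.7 FPKM in untreated cells (log2 fold change 1.69, limma adjusted p = 3.08e-06). Neither passed the test with rapamycin (log2 fold change 0.14 and -0.03, limma adjusted p = 0.32 and 0.84).

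SPNCRNA.1442 and isp4 moved apart. SPNCRNA.1442 (chromosome II, 1553509 to 1554385, plus strand) had 10.7 and 10.2 FPKM with rapalink-1, against 14.9 and 18.1 FPKM in untreated cells, and fell by 0.60 on the log2 scale (SE 0.09, limma adjusted p = 0.0011). The gene isp4, which encodes an oligopeptide transporter and starts 41 bases away in the other direction, had 345 and 281 FPKM with rapalink-1, against 19.5 and 23.5 FPKM in untreated cells, and rose (log2 fold change 3.81, limma adjusted p = 7.98e-08). In a further divergent pair both members fell. SPNCRNA.189 (chromosome I, 2248603 to 2249009) had 1.33 and 1.20 FPKM with rapalink-1 against 5.07 and 4.06 FPKM in untreated cells (log2 fold change -1.29 ± 0.18, limma adjusted p = 0.00052). Its neighbour byr3, a predicted translational activator gene 67 bases away, fell by 0.42 (limma adjusted p = 0.00016). SPNCRNA.1696, which was chosen after its values were seen, rose (log2 fold change 1.56, limma adjusted p = 3.62e-06) beside SPBPB2B2.05, a peptidase family gene 230 bases away that rose by 2.42 (limma adjusted p = 4.05e-06).

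**Figure D4:**
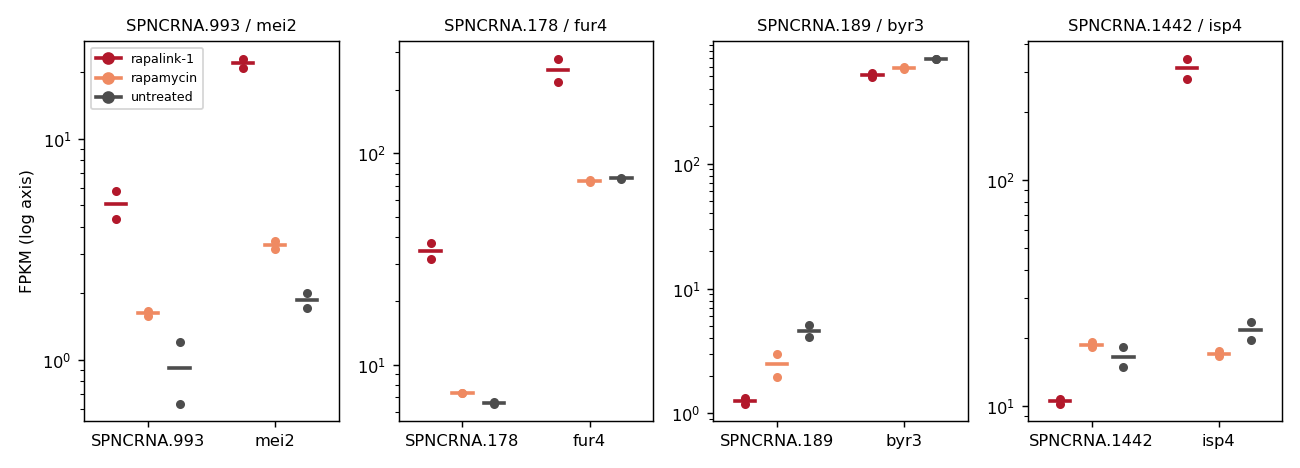
FPKM (log axis) of 4 ncRNAs and the divergent coding gene beside each, in rapalink-1-treated (red), rapamycin-treated (orange) and untreated (grey) cells, with points for the 2 libraries and bars for their mean. With rapalink-1 both members are higher for SPNCRNA.993 and mei2 and for SPNCRNA.178 and fur4, both are lower for SPNCRNA.189 and byr3, and SPNCRNA.1442 is lower while isp4 is higher.

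Across the 188 ncRNAs without a coding overlap, neighbours within 500 bases showed no strong common pattern. In 76 divergent pairs the 2 genes had log2 fold changes of the same sign in 44 pairs, and in the 16 pairs where both passed the test 13 had the same sign. Pearson's r over these pairs was 0.36 and Spearman's rho 0.26, as a description over pairs that share libraries. Without the pairs of SPNCRNA.993, SPNCRNA.178 and SPNCRNA.1696, left out after seeing their values, r was -0.04. With the coding gene downstream on the same strand (63 pairs) r was 0.10 and rho 0.28, with the gene upstream on the same strand (17 pairs) 0.12 and 0.36, and in 27 convergent pairs 0.01 and -0.02.

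Among ncRNAs that overlap a coding gene on the opposite strand, the largest increase was that of SPNCRNA.1216. SPNCRNA.1216 (chromosome III, 1674603 to 1675220, plus strand) had 13.6 and 11.1 FPKM with rapalink-1 and 3.57 and 3.33 FPKM with rapamycin, against 3.67 and 3.87 FPKM in untreated cells (log2 fold change with rapalink-1 1.48 ± 0.12, limma adjusted p = 2.13e-05). The gene under its end, cfh2, a predicted chitin synthase regulator, rose by 0.24 (limma adjusted p = 0.0013), and the difference between the pair's changes passed the test (1.25 ± 0.14, limma adjusted p = 1.31e-05). SPNCRNA.1316 (chromosome II, 145701 to 148807, minus strand) had 17.6 and 15.7 FPKM with rapalink-1, against 7.02 and 6.13 FPKM in untreated cells (log2 fold change 1.23 ± 0.10, limma adjusted p = 2.12e-05). SPBC1683.05, a predicted uracil or uridine permease gene under 893 bases of it, rose by 1.51 (limma adjusted p = 2.29e-06), and the difference of -0.28 ± 0.12 within the pair did not pass the test (limma adjusted p = 0.075).

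Of the 135 ncRNAs described as antisense RNA, 25 rose (18.5%) and 5 fell (3.70%) with rapalink-1, against 24.8% and 22.5% of all tested genes. Among those described as intergenic RNA 29.3% rose and 9.17% fell. The antisense RNA aim27-antisense-1 had 9.72 and 9.08 FPKM with rapalink-1 against 3.84 and 3.14 FPKM in untreated cells (log2 fold change 1.22 ± 0.12, limma adjusted p = 0.0001), while aim27 itself was below the minimum in these counts. The RNA mug147-antisense-1, which has 51 free bases and lies for 97% of its length under other models, had 3.28 and 3.63 FPKM against 0.917 and 0.975 FPKM. It rose by 1.20 ± 0.17 (limma adjusted p = 0.00065), and mug147, a gene upregulated in meiosis, rose by 0.94 (limma adjusted p = 0.00074). Largest among the decreases after SPNCRNA.1342 was SPNCRNA.630 (chromosome I, 253719 to 255964), with 4.35 and 5.70 FPKM with rapalink-1 against 9.78 and 8.12 FPKM (log2 fold change -0.72 ± 0.13, limma adjusted p = 0.0026). The potassium transporter gene trk2, which it overlaps by 84 bases, rose by 0.31 (limma adjusted p = 0.0019), while SPAC1639.01c, which it overlaps by 882 bases, fell by 0.27 (limma adjusted p = 0.0011). The difference from trk2 passed the test (-1.04 ± 0.16, limma adjusted p = 0.00017), in a pair that was also chosen for its opposite directions.

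The ncRNAs formed 292 pairs with coding genes on the opposite strand, of which 198 had a coding gene above the minimum. In 102 of the 198 pairs the log2 fold changes with rapalink-1 had the same sign and in 96 the opposite sign, with r = 0.26 and rho = 0.20 over pairs (a description: the libraries are shared and some genes occur in several pairs). Both genes passed the test in 29 pairs, with the same sign in 22 (19 both higher, 3 both lower) and opposite signs in 7. The 29 and the 7 include cpc2-antisense-1, which met the minimum through rapalink-1 alone. In 30 further pairs the ncRNA alone passed, and in 61 the coding gene alone. The coding genes under an opposite-strand ncRNA rose in 24.1% and fell in 21.0% of 195 cases, against 24.8% and 24.3% of all protein-coding genes tested.

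The ncRNA's change differed from the coding gene's in 64 of the 198 opposite-strand pairs (limma on the difference of log2 values). Among all 1304 overlapping pairs of any kind the share was 46.0%. Those pairs were not matched for level to the pairs with an ncRNA, so a difference between the shares at equal level was not tested. The constant added to FPKM before the logarithm also shrinks changes of low ncRNAs more than those of higher coding genes. These limits hold for the same-strand pairs and the other comparisons as well. In 42 of the 64 the ncRNA moved above the gene. With the scaling used here, the median log2 fold change over the 198 pairs was 0.177 for the ncRNAs and -0.005 for the genes.

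Of the 7 pairs with opposite signs, 6 consisted of an ncRNA that rose and a gene that fell, and the other was SPNCRNA.630 with trk2. SPNCRNA.1464, with rps1402, falls outside the naming rule and was named after its values were seen. It rose by 0.30 (limma adjusted p = 0.038), while rps1402 fell by 0.32 (limma adjusted p = 0.0043). Its call was missed by edgeR (adjusted p = 0.103), DESeq2 (0.227) and after quantile normalization (limma 0.152). It was also lost when a single untreated or rapalink-1 library was left out. The RNA cpc2-antisense-1 had 1.52 and 2.07 FPKM with rapalink-1 against 0.328 and 0.966 FPKM in untreated cells, and met the minimum through rapalink-1 alone, so its values are a description. It lies opposite cpc2, the RACK1 protein of the ribosome, which fell by 0.40 (limma adjusted p = 0.00041). SPNCRNA.1038 rose by 0.71 ± 0.23 (limma adjusted p = 0.031) opposite not3, a predicted CCR4-Not deadenylase subunit gene that fell by 0.26, and SPNCRNA.800 rose by 0.48 ± 0.11 (limma adjusted p = 0.0080) opposite cka1, a casein kinase gene that fell by 0.16. SPNCRNA.1231 rose by 0.43 ± 0.11 (limma adjusted p = 0.011), with SPCC285.03 falling by 0.22 over 5 shared bases and SPCC285.04 rising by 0.85 over 421. The last 3 calls were lost without 1 library. Without untreated replicate 1 the limma adjusted p was 0.133 for SPNCRNA.1038 and 0.0768 for SPNCRNA.1231, and without rapalink-1 replicate 2 it was 0.187 for SPNCRNA.1038 and 0.0509 for SPNCRNA.800. The differences of SPNCRNA.1038 from not3, SPNCRNA.800 from cka1 and SPNCRNA.1231 from SPCC285.03 passed the test. However, these pairs were chosen because both genes were called, in opposite directions. That choice favours a difference, so the passing differences add no support to the calls that were lost.

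**Figure D5:**
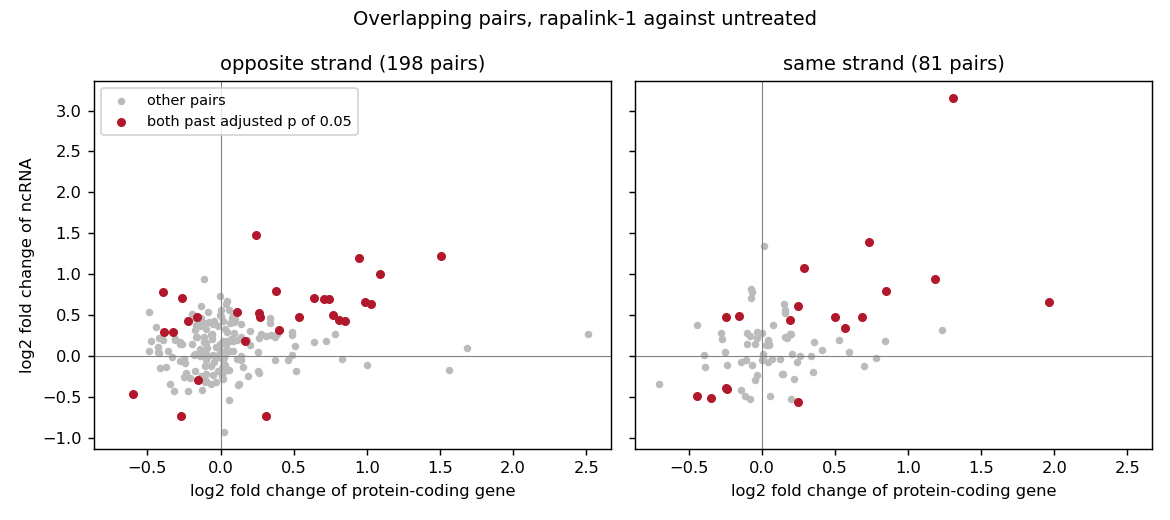
Log2 fold change of the ncRNA (vertical axis) against that of the overlapping protein-coding gene (horizontal axis), rapalink-1 against untreated, for 198 opposite-strand pairs (left) and 81 same-strand pairs (right). Red points are the 29 and 18 pairs in which both genes passed an adjusted p of 0.05. The highest point on the right is SPNCRNA.935 with per1. SPNCRNA.935 and, on the left, cpc2-antisense-1 met the minimum through rapalink-1 alone, so their red points are descriptions.

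Same-strand pairs were fewer. Of 81 same-strand pairs, 49 had the same sign with rapalink-1, and of 18 pairs in which both genes passed 15 did (11 both higher, 4 both lower), with r = 0.46 and rho = 0.31 over pairs that share libraries. Without SPNCRNA.935 and per1, left out after seeing their values, r was 0.36 and rho 0.29. That pair is counted in the 18, 15 and 11. The coding genes that share a strand with an overlapping ncRNA rose in 40.7% and fell in 17.3% of 81 cases. Among all protein-coding genes tested 24.8% rose and 24.3% fell, so rises were already more frequent among these partner genes. The difference within the pair passed the test in 29 of the 81, against 46.0% of all overlapping pairs. SPNCRNA.935 (chromosome I, 3745778 to 3748833, plus strand) had 10.5 and 9.25 FPKM with rapalink-1 and 0.279 and 0.240 FPKM with rapamycin, against 0.202 and 0.242 FPKM in untreated cells. It is 1 of the 14 ncRNAs above the minimum through rapalink-1 alone, so its 44.4-fold difference of the means is a description, with no test. It has only 171 free bases, since most of it lies under SPNCRNA.934, which had no reads, and its end overlaps the start of per1, an amino acid permease gene, by 67 bases. per1 had 80.6 and 72.8 FPKM with rapalink-1 against 27.3 and 34.1 FPKM (log2 fold change 1.31, limma adjusted p = 1.37e-05).

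Further ncRNAs with a same-strand overlap changed with or without the coding gene. SPNCRNA.1459 (chromosome II, 1742555 to 1744043, minus strand) had 20.1 and 18.6 FPKM with rapalink-1 against 5.96 and 8.30 FPKM (log2 fold change 1.34 ± 0.15, limma adjusted p = 0.0002). mlo3, an RNA export factor gene that shares 76 bases with it, had a log2 fold change of 0.02 (limma adjusted p = 0.75). SPNCRNA.1459 is annotated as a possible alternative end of a coding transcript, and whether it belongs to mlo3 was not tested. The poly(A)-bearing RNA prl32 rose by 1.40 ± 0.14 (limma adjusted p = 0.0001) with SPCC417.16, which rose by 0.74, and its whole span lies under other models. SPNCRNA.834 rose by 0.94 ± 0.13 (limma adjusted p = 0.00046) and shares 97 bases with isp6, a vacuolar protease gene that rose by 1.19 (limma adjusted p = 2.23e-06). The RNA rpl20-antisense-1, with overlaps on both strands, had 8.46 and 7.12 FPKM against 11.4 and 11.7 FPKM (log2 fold change -0.51 ± 0.09, limma adjusted p = 0.0023), next to the ribosomal protein gene rps2, which fell by 0.35 (limma adjusted p = 0.0031).

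The second comparison set rapamycin-treated cells against the same untreated cells. With rapamycin 38 of the 474 ncRNAs rose and 9 fell (limma), which is 8.02% and 1.90%, against 10.4% and 7.28% of all tested genes. The median log2 fold change was 0.103 over the ncRNAs and 0.005 over all tested genes. Called rises of at least 2-fold were seen for 2 ncRNAs, omt3 and sme2, against 12 of the 4847 tested genes. Of the calls 80.9% were increases, against 62.9% after quantile normalization (22 higher, 13 lower) and 91.2% with edgeR (31 higher, 3 lower). Among all called genes these shares were 58.9%, 51.0% and 58.3%. These counts rested on single libraries: 16 rose and 1 fell without untreated replicate 1, 19 and 4 without untreated replicate 2, 16 and 4 without rapamycin replicate 1, and 8 and 3 without rapamycin replicate 2.

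SPNCRNA.99 (chosen after its values were seen), 155 bases long and 308 bases before the transcription factor gene sfp1, had 43.0 and 55.2 FPKM with rapamycin against 27.6 and 29.8 FPKM in untreated cells (log2 fold change 0.75, limma adjusted p = 0.0052). sfp1 rose by 0.99 (limma adjusted p = 0.00018). With rapalink-1 SPNCRNA.99 had 28.2 and 33.4 FPKM and was lower than with rapamycin by a log2 fold change of -0.65 (limma adjusted p = 0.0027), while sfp1 rose by 0.86 against untreated cells. SPNCRNA.228 had 2.31 and 2.67 FPKM with rapamycin against 5.35 and 4.82 FPKM in untreated cells (log2 fold change -0.80 ± 0.12, limma adjusted p = 0.0051). With rapalink-1 it had 3.74 and 3.53 FPKM (-0.39 ± 0.12, limma adjusted p = 0.030), a call that was lost without either untreated or either rapalink-1 replicate (limma adjusted p from 0.0593 to 0.158). Of the opposite-strand pairs 2 had both genes past the threshold with rapamycin, both with the same sign, and the difference within the pair passed in 18 of 198, with 7 of 81 on the same strand, against 15.3% of all overlapping pairs. Without single libraries the total of 25 fell to between 7 and 10 when an untreated or rapamycin library was left out.

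The direct comparison of the drugs, at the same dose and time, gave 58 ncRNAs with a higher and 36 with a lower level under rapalink-1, set against rapamycin (limma). These are 12.2% and 7.59%, against 19.7% and 17.4% of all tested genes. Without the 19 ncRNAs that met the minimum through a single condition, 54 were higher and 36 lower of 455. After quantile normalization 46 were higher and 54 lower, so that the share of increases was 46.0% in place of 61.7%. Among all called genes that share was 41.6% in place of 53.1%. Leaving out rapamycin replicate 1 gave 37 and 23, leaving out rapamycin replicate 2 gave 35 and 15, and leaving out rapalink-1 replicate 1 gave 42 and 20.

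Several ncRNAs described above were also higher than with rapamycin. omt3 was higher with rapalink-1 by a log2 fold change of 2.63 ± 0.12 (limma adjusted p = 1.58e-06), SPNCRNA.178 by 2.09 ± 0.09 (limma adjusted p = 1.18e-06) and sme2 by 1.65 ± 0.19 (limma adjusted p = 0.00027). SPNCRNA.1122 (chromosome III, 258116 to 258797) had 4.66 and 4.20 FPKM with rapalink-1 against 0.662 and 1.08 FPKM with rapamycin, and like SPNCRNA.935 it met the minimum through rapalink-1 alone, so this is a description. In the other direction, SPNCRNA.1442 (10.7 and 10.2 FPKM with rapalink-1 against 19.1 and 18.2 FPKM with rapamycin) and SPNCRNA.779 (6.85 and 7.75 FPKM against 12.3 and 13.3 FPKM) were lower by 0.77 and 0.74 on the log2 scale. Among overlapping pairs the difference within the pair changed in 29 of 198 opposite-strand and 20 of 81 same-strand pairs, against 35.0% of all pairs, and the total of 49 was 32 without rapamycin replicate 2.

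The genes of RNA surveillance, as a list of 45 genes of the exosome, TRAMP, MTREC, Mmi1, RNA interference, decapping and nonsense-mediated decay, were counted next. Of 42 above the minimum 15 fell (35.7%) and 3 rose (7.14%) with rapalink-1, against 22.5% and 24.8% of all tested genes, with a median log2 fold change of -0.13 against -0.007 over all tested genes. The exosome cap subunit gene rrp4 had 39.9 and 39.2 FPKM with rapalink-1 and 44.8 and 46.0 FPKM with rapamycin, against 58.9 and 56.7 FPKM in untreated cells (log2 fold change with rapalink-1 -0.53, limma adjusted p = 3.65e-05). The TRAMP helicase gene mtr4 had 29.8 and 29.1 FPKM with rapalink-1 and 42.2 and 42.8 FPKM with rapamycin, against 44.0 and 41.0 FPKM in untreated cells (log2 fold change with rapalink-1 -0.51, limma adjusted p = 0.00011). mmi1 itself fell by 0.18 with rapalink-1 (limma adjusted p = 0.025), but not without untreated replicate 1 (0.094), untreated replicate 2 (0.0716) or rapalink-1 replicate 1 (0.105). Among those that rose was arb2, a gene of an Argonaute chaperone complex (log2 fold change 0.37, limma adjusted p = 0.0012). With rapamycin 7 of the 42 fell and 1 rose, against 7.28% and 10.4% of all tested genes. Whether these levels bear on the ncRNAs was not tested.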

How the data were processed

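RNA was captured by poly(A) and sequenced as paired ends from 6 libraries, 2 per condition. The authors deposited FPKM for all gene models and read counts for part of them. The submitters' processing notes name HISAT2 2.0.5, StringTie 1.3.3b, featureCounts 1.5.0-p3 and DESeq2, and the genome build and strand setting are not given in the sources used here. Dividing the deposited FPKM by the value of 1 read gave whole reads (tolerance 0.001 read) for 7268 of 7268 genes.

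FPKM values were divided by median-of-ratios factors, and log2(FPKM + 1) was tested with limma 3.58.1 (R 4.3.3) with an intensity trend over all 6 libraries, for 4847 genes with a mean of at least 1 FPKM, with Benjamini-Hochberg adjustment and a threshold of 0.05. For 1304 overlapping pairs of tested genes the difference of log2 values was tested in the same way. The method was tested on simulated data. Alternatives were other pseudocounts, filters and scalings, a replicate block, count models of the whole reads (edgeR 4.0.16, DESeq2 1.42.0), and leaving out each library. Genes were named as the largest changes per comparison and position class whose conditions do not overlap, with their overlapping or adjoining coding genes, the pairs with both genes called, and lists of known ncRNAs and of RNA surveillance genes. The ncRNAs, the lists and the naming rule were chosen with earlier results of these data known. Columns of the authors' own comparisons (fold changes and p-values) were not used.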

Additional observations from a re-analysis of the deposited data

Results flagged for a closer look

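SPNCRNA.488 (chromosome III, 1337438 to 1337811, plus strand, no overlap) moved in different directions with the drugs. It had 9.78 and 9.29 FPKM with rapalink-1 and 5.23 and 5.20 FPKM with rapamycin, against 7.03 and 7.16 FPKM in untreated cells, so every rapalink-1 library lay above and every rapamycin library below the untreated ones. The difference between the drugs was a log2 fold change of 0.76 (rapalink-1 minus rapamycin, limma adjusted p = 0.00028). Against untreated cells the change was 0.38 with rapalink-1 (limma adjusted p = 0.0072, edgeR 0.109, DESeq2 0.327) and -0.38 with rapamycin (limma adjusted p = 0.022, edgeR 0.175, DESeq2 0.44). The rapamycin change also missed the threshold without either untreated or either rapamycin library (limma adjusted p from 0.0784 to 0.0991). The counts behind these values were 39 to 61 reads per library.

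Among the 551 ncRNAs below the minimum level, which no comparison above uses, 39 rose and 6 fell under rapalink-1, relative to untreated cells, when all genes were tested with limma without a filter. These are 7.08% and 1.09%, against 20.2% and 16.8% of the 5816 genes in that test. Some of the calls rested on single reads. SPNCRNA.185, called higher, had 1 read in each rapalink-1 library and 0 in every other library. The RNA ark1-antisense-1, called lower, had 0 reads in each rapalink-1 library and 1 in each untreated library. SPNCRNA.603, also called higher, had 1.91 and 2.57 FPKM with rapalink-1 (28 and 37 reads) and 0.171 and 0.544 FPKM with rapamycin (3 and 13 reads). In untreated cells it had 0.176 and 0.0649 FPKM (3 and 1 reads).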

How the results depend on the processing

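The counts of ncRNAs are given as higher and lower for rapalink-1 against untreated, then rapamycin against untreated, then rapalink-1 against rapamycin, and pairs are those whose difference changed, in the same order. With all genes tested, rapamycin gave 25 and 3 ncRNAs and 12 pairs. With a minimum of 10 FPKM, which leaves 75 ncRNAs, the counts were 26 and 10, 17 and 1, 12 and 11, and 16, 12 and 12 pairs. Quantile normalization gave 80 lower with rapalink-1, 22 higher with rapamycin, and 54 lower with rapalink-1 than with rapamycin. Without an intensity trend, 5 fell with rapamycin and 10 pairs changed. edgeR gave 3 lower with rapamycin. DESeq2 gave 69 and 13, 21 and 2, and 29 and 16. With overlaps of at least 50% the pairs were 14, 1 and 11.

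Leaving out each library gave 87 to 107 and 18 to 36, 8 to 53 and 1 to 10, and 35 to 58 and 15 to 36 ncRNAs, and 67 to 91, 7 to 27 and 32 to 51 pairs. A condition left with 1 library was assumed to vary like the others. The replicate block gave 104 and 36, 44 and 7, and 60 and 36 ncRNAs, and 95, 21 and 51 pairs. Deviations of same-numbered libraries showed little correlation over the tested genes (r = -0.01, 0.00 and 0.04). With 2 libraries per condition this cannot decide whether they share a mother culture. Of 79 changes of named ncRNAs past the threshold, none reversed in 1276 refits, and 142 refits missed the threshold. The naming rule took called changes, for the largest ones also with conditions that do not overlap. An unchanged sign was thus favoured by the choice. The 79 include ncRNAs that met the minimum through rapalink-1 alone, such as cpc2-antisense-1, whose values are descriptions. The cause of the differences between settings was not tested. A median of 401 reads per ncRNA over the 6 libraries, and 2 libraries per condition, limit the precision.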
